A study of Mus musculus with 46 samples.

Results

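The miRNAs described here are the mouse entries whose numbers run from miR-5098 to miR-5136 on the array, 1 block of late additions to miRBase, the registry that numbers miRNAs in the order in which they are reported. The array holds 38 of them among 1881 mouse miRNAs. Membership was chosen by the number in the name alone, but the block was proposed after the levels of some members, such as miR-5126, miR-5128 and miR-5121, had been seen against RNA integrity and between liver samples of low and high quality. Values against integrity, between the liver quality groups and over storage at room temperature are therefore a description of the members and support nothing. The arrays measured total RNA of heart, liver and brain of male C57BL6 mice of an Il1a knock-out strain, so that every sample lacks interleukin 1 alpha. The organs were taken from cadavers, cut into pieces and kept for 0, 1, 3, 6, 12, 24, 48 or 96 h at 4 °C or at room temperature (RT), and no wild-type animals were included. Of 46 arrays, 45 were analysed, namely 7 heart, 6 liver and 8 brain arrays from 4 °C and 8 arrays of each tissue from RT. Each array is 1 piece of 1 animal. By the study's methods the 3 tissues were taken from the same individual, 1 for each temperature, so that the tissues at a temperature share an animal. All pieces of a tissue and temperature lay on 1 slide, so that animal, slide and temperature cannot be told apart.

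A miRNA is cut out of a hairpin in a longer transcript by the enzymes Drosha and Dicer and is loaded into an Argonaute protein, which it guides to messenger RNAs mainly through its seed, the bases 2 to 8. Both strands of a hairpin can be used, and they are then named as the 5p and the 3p arm. When a tissue dies, its ribosomal and messenger RNAs are cut by RNases into short pieces, and some of these pieces are as long as a miRNA. The state of the long RNA is given as the RNA integrity number (RIN), which is high for intact and low for broken RNA. Arrays with a RIN over 6 are called intact below, and those with a RIN of 6 or lower degraded. By this rule 33 arrays were intact (13 heart, 6 liver and 14 brain) and 12 were degraded (2 heart, 8 liver and 2 brain).

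Mature sequences from RefSeq on the build GRCm38.p6 were matched by name for 32 of the 38 members, and for 16 of the 19 that entered the tests. They are shown for the members whose levels are followed below, with the seed in capitals. The first 5 are the members in which at least 75% of the bases are G or C.
miR-5126: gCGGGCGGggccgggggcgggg
miR-5131: cGGCGCCCcacggagccccgagc
miR-5122: cCGCGGGAcccggggcugug
miR-5130: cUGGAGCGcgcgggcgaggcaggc
miR-5133: gCUGGAGCugcggcagcgcag
miR-5121: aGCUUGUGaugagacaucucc
miR-5128: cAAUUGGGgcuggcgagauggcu
miR-5100: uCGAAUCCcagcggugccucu
miR-5119: cAUCUCAUccuggggcugg
miR-5118: aAGGUUAGgccagccuggu
miR-5113: aCAGAGGAggagagagauccugu
miR-5132-5p: gCGUGGGGugguggacucagg
miR-5132-3p: cUGAUGUUccccaucccgcag

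No letter other than G and C occurs in miR-5126, and G makes up 77.3% of it. The share of G and C was 87.0% in miR-5131, 85.0% in miR-5122, 83.3% in miR-5130 and 76.2% in miR-5133. Such a share of 75% or more was found in 5 of the 16 sequenced members that were tested (31.3%), in 26 of all 680 tested miRNAs with a sequence (3.82%) and in 0 of the 16 sequenced members that were not tested. Of the 5 tested members, miR-5122 and miR-5133 entered the tests only through degraded arrays. The median share of G and C was 62.8% in the tested members, 61.9% in other tested miRNAs with a number of 3000 or higher, and 47.6% in those with a number under 1000. None of the 13 seeds printed above was shared with another of the 1608 array miRNAs that have a sequence here. Over all 32 sequences, 5 members shared a seed with another of these, for example miR-5124b with miR-24-3p, and none of those 5 entered the tests.

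Several of the tested members lay close to the start of a gene. Of the 32 sequenced members, 28 lay within the span of a protein-coding gene and 3 in no annotated gene. Where the promoter table gives the gene's strand, miRNAs were placed against the start of a coding gene that encloses them. Within 400 bases of it lay 7 of the 16 tested and sequenced members (43.8%), beside 25 of all 680 tested and sequenced miRNAs (3.68%). Tested or not, it was 7 of the 32 sequenced members (21.9%), beside 44 of 1608 sequenced miRNAs on the array (2.74%). This window was chosen after the positions had been seen and was not tested. The closest was miR-5130 (chr14:102982608-102982631, minus strand), 6 bases inside Kctd12, which encodes an auxiliary subunit of GABA-B receptors. Next came miR-5133 (chr9:62122565-62122585, minus strand), 24 bases inside Glce, and miR-5131 (chr14:45657972-45657994, minus strand), 149 bases inside Ddhd1. These 3 are read from the same strand as the gene. In contrast, miR-5126 (chr1:84695890-84695911, plus strand) lay 310 bases inside Dner on the strand opposite to the gene. Both arms of miR-5132 (chrX:74023534-74023591, minus strand) lay within the first 400 bases of Irak1, a kinase of the interleukin 1 receptor pathway, and miR-5100 (chr11:60728698-60728718, plus strand) lay 300 bases inside Mief2. Among all 38 sequenced miRNAs on the array with at least 75% G and C, 16 (42.1%) lay in such a window. Whether a member is in an exon, an intron or a UTR was not analysed here.

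Of the 32 sequenced members, only miR-5121 lay inside an annotated gene of another small RNA class. Members without a sequence here, among them the tested miR-5099, miR-5107-5p and miR-5112, could not be placed. Only positions were compared, and sequences were not matched to other small RNAs. The 21 bases of miR-5121 (chr7:45126925-45126945, minus strand) begin at the edge of Snord33 (chr7:45126864-45126945). Snord33 is a box C/D small nucleolar RNA that lies within the ribosomal protein gene Rpl13a. Such RNAs guide the methylation of ribosomal RNA. Among all sequenced miRNAs on the array, 10 lay inside a gene annotated as snoRNA, guide RNA or miscellaneous RNA. Of the 5 of these that were tested, miR-5121 had an r with RIN of -0.91, and the other four had values of -0.06 (miR-664-5p), 0.52 (miR-664-3p), 0.23 (miR-1843a-5p) and 0.74 (miR-3069-3p).

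The block was detected about as often as the array as a whole, with 39.5% of the members and 43.0% of all miRNAs on no array. Detection means the flag that the scanner software gives a miRNA on an array. Of the 38 members, 6 were detected on all 45 arrays, namely miR-5100, miR-5107-5p, miR-5112, miR-5119, miR-5126 and miR-5128. A further 13 were detected on at least 5 arrays, the minimum for a test. These were miR-5103 (38 arrays), miR-5130 (37), miR-5131 (29), miR-5118 (27), miR-5121 (27), miR-5113 (22), miR-5132-5p (20), miR-5122 (12), miR-5132-3p (12), miR-5135 (10), miR-5099 (9), miR-5104 (7) and miR-5133 (7). On fewer arrays were miR-5110 (4), miR-5116 (4), miR-5114 (2) and miR-5120 (1). The other 15 were detected on no array, namely miR-5098, miR-5101, miR-5106, miR-5107-3p, miR-5108, miR-5123, miR-5124a, miR-5124b, miR-5125, miR-5127, miR-5129-3p, miR-5129-5p, miR-5134-3p, miR-5134-5p and miR-5136. Not detected means not above background on the array and does not show that the RNA is absent. Tested were thus 19 of 38 members, 43.3% of all miRNAs and 32.2% of the 898 other entries with a number of 3000 or higher.

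More members were detected in degraded than in intact RNA. In heart the number on an array ranged from 8 to 12 (median 9) over the 13 intact arrays and was 17 and 20 on the 2 degraded arrays. In brain the range was 9 to 16 over 14 intact arrays, against 18 and 20. In liver it was 6 to 9 over 6 intact arrays and 8 to 21 (median 16.5) over 8 degraded arrays, so that the groups did not overlap in heart and brain and overlapped in liver. The number of all detected miRNAs moved in the same way. The median per array rose from 421 to 636 in heart, from 544 to 743 in brain and from 341 to 550.5 in liver. As a share of the array, this was 22.4% of all miRNAs and 23.7% of the members in intact heart, and 33.8% of all and 48.7% of the members in degraded heart. Detected in degraded RNA only were 5 members, namely miR-5110, miR-5114, miR-5116, miR-5120 and miR-5133, while no member was detected in intact RNA only. All of these but miR-5133 were detected on 4 arrays or fewer. How many of all miRNAs were detected in degraded RNA only was not counted, so that this is not shown to be a trait of the members.

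**Figure D1:**
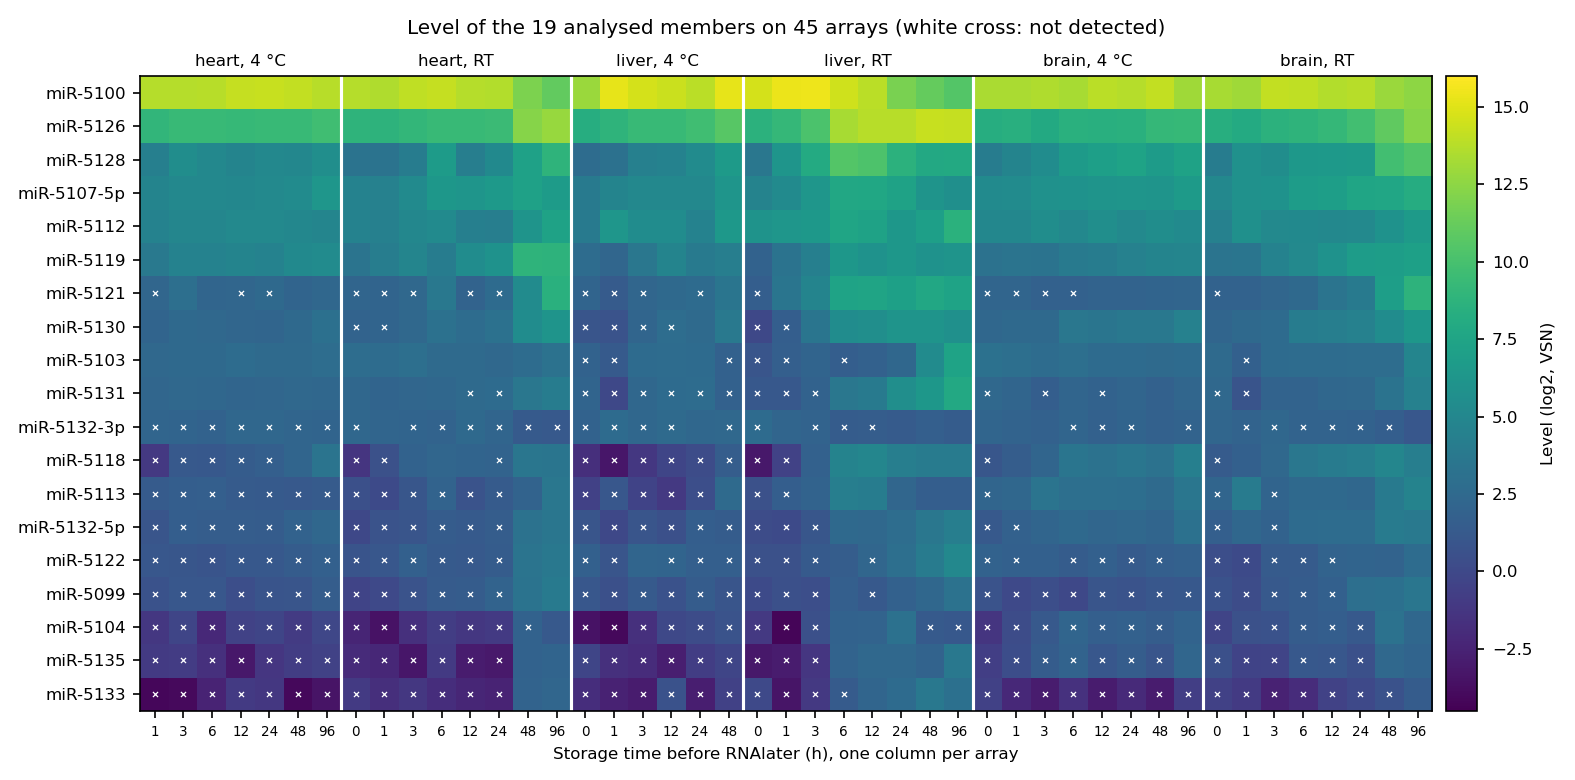
Colour gives the level (log2, normalized by VSN) of the 19 tested members, 1 row each, on the 45 arrays, 1 column each, ordered by tissue, temperature and storage time. White crosses mark arrays on which the member was not detected. The top row, miR-5100, spans 10.51 to 15.47, and the crosses thin out toward the late RT columns of each tissue.

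Levels were compared on the log2 scale after variance stabilizing normalization (VSN), which puts the arrays on a common scale. A difference of 1 is about 2-fold for a bright miRNA. Near the background VSN shrinks differences, so that 1 stands for more than 2-fold of a positive signal there. Different miRNAs are read by different probes, so that levels are compared between arrays and not between members. Arrays of 1 tissue differ in storage time, and the SDs below are therefore spreads over storage times, not over animals. Detection and r were computed for every tested member, and 2-sided tests of all 815 tested miRNAs were adjusted by the Benjamini-Hochberg method to a false discovery rate of 0.05. No member was saturated on any spot.

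With falling RIN, 17 of the 19 tested members were higher and 2 were lower. The minimum of 5 arrays counted intact and degraded arrays together. It was reached by miR-5099, miR-5104, miR-5122, miR-5133 and miR-5135 only through degraded arrays. Each of these was detected on 4 intact arrays or fewer, so that their direction was partly set by this minimum. Pearson's r with RIN over the 45 arrays was negative and past the threshold for 17 members, where 40.2% of all tested miRNAs were called in this direction. It was positive and past the threshold for miR-5100 and miR-5132-3p, where 33.7% of all were called. Among the 289 other tested miRNAs with a number of 3000 or higher, 194 were called negative and 37 positive, and among the 459 with a number under 1000 (or a let-7 name) the counts were 85 and 230. The median r was -0.60 for the members, -0.52 for the other high numbers, 0.31 for the low numbers and -0.03 for all. Within each tissue, r had the same sign as over all arrays for 19 of 19 members, which was not counted over all tested miRNAs. The slope on RIN differed between the tissues for 1 member, miR-5099, where 5.77% of all tested miRNAs were called. It was -0.63 ± 0.11 (SE) in brain, -0.53 ± 0.09 in heart and -0.17 ± 0.07 in liver, in log2 per unit of RIN.

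The most negative values were those of miR-5126 (r = -0.92, rho = -0.68), miR-5121 (r = -0.91, rho = -0.61), miR-5112 (r = -0.88, rho = -0.76) and miR-5133 (r = -0.79, rho = -0.60). Leaving out the 2 arrays with the RIN most distant from the median, r was -0.90, -0.88, -0.86 and -0.74. For miR-5103 the relation rests on the most degraded arrays, since its r of -0.32 was -0.10 without the 2 farthest arrays and its rho was 0.04. The same holds for miR-5100, whose r of 0.42 was 0.21 without these arrays. When only the 33 intact arrays were used, no member passed the threshold, and 4 members had an unadjusted p under 0.05 (0 and 104 of all 815 miRNAs). Of these 4, miR-5107-5p (r = -0.41) and miR-5112 (r = -0.52) kept the negative sign, whereas miR-5103 (r = 0.45) and miR-5131 (r = 0.38) had the opposite sign to that over all 45 arrays.

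The guanine-rich miR-5126 was bright on every array. In heart it ranged from 8.77 to 9.73 (median 9.28) over the 13 intact arrays and was 12.28 and 12.80 on the 2 degraded ones. In brain the intact range was 7.98 to 9.83 (median 8.51), against 11.03 and 12.26. In these tissues every degraded array lay above every intact one. In liver the 6 intact arrays ranged from 8.25 to 9.69, and the 8 degraded ones from 9.18 to 14.24 with a median of 13.53, so that the groups overlapped at the sample of RIN 6.0. The mean difference of 3.32 in heart, 2.97 in brain and 3.41 in liver was about 9.96-fold, 7.86-fold and 10.6-fold.

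For miR-5121, the member inside Snord33, most of the change was from near the background. It was detected on 15 of the 33 intact and on all 12 degraded arrays. Intact levels ranged from 2.01 to 3.74 in heart, from 1.36 to 2.67 in liver and from 1.87 to 3.97 in brain. The degraded arrays were at 5.40 and 8.54 in heart, at 7.88 on average and 8.76 at most in brain (2 arrays), and between 3.45 and 7.83 (median 7.30) in liver. The groups did not overlap in any of the 3 tissues. The mean difference was 4.53 in heart, 4.03 in liver and 5.56 in brain.

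The levels of miR-5128 spread widely even in intact RNA. They ranged from 3.29 to 6.76 (median 4.99) in intact heart, from 2.75 to 5.42 (median 4.00) in intact liver and from 4.07 to 7.37 (median 6.51) in intact brain. The degraded arrays were at 7.26 and 8.85 in heart, at 9.81 and 10.44 in brain, and from 6.16 to 10.53 (median 7.97) in liver. In each tissue all degraded arrays lay above all intact ones, by 3.26, 4.08 and 4.29 on average in heart, brain and liver.

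The 3 other members detected on all arrays and called negative, miR-5112, miR-5107-5p and miR-5119, were also higher in degraded RNA. The range of miR-5112 was 4.26 to 5.28 in intact heart, against 6.15 and 7.34 in degraded heart. In intact and degraded brain it was 4.54 to 5.79 against 5.99 and 6.70, and in liver 3.84 to 6.29 against 6.30 to 8.56. These groups touch but do not overlap. The liver arrays of miR-5107-5p ranged from 3.84 to 5.10 when intact and from 5.27 to 7.83 when degraded, also without overlap. For miR-5119 the 2 degraded heart arrays, at 8.72 and 8.81, stood above the intact range of 3.41 to 5.92 (a mean difference of 4.09), while its liver groups (1.91 to 4.73 and 3.27 to 6.35) overlapped.

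At the other end, miR-5133 was below detection on all 33 intact arrays. It was detected on both degraded heart arrays (1.99 and 2.23), on 1 of the 2 degraded brain arrays (1.46) and on 4 of the 8 degraded liver arrays (2.16 to 3.67). The level in intact RNA is only a bound, and against the lowest detected signal of those arrays the heart value was at least 1.63-fold higher. In liver and brain no fold can be given.

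Over the 19 tested members, all degraded arrays of a tissue lay above all its intact arrays for 16 members in heart, where 37.5% of all tested miRNAs did so, for 12 in brain (28.5% of all) and for 5 in liver (3.19% of all). The 5 in liver were miR-5107-5p, miR-5112, miR-5113, miR-5121 and miR-5128. Before scaling, the probes of a member lay on the same side in each tissue, with the median over degraded arrays above or below that over intact arrays, except in heart for miR-5132-3p, whose probes disagreed. Both probes of miR-5100 were lower in degraded heart and brain and higher in degraded liver.

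**Figure D2:**
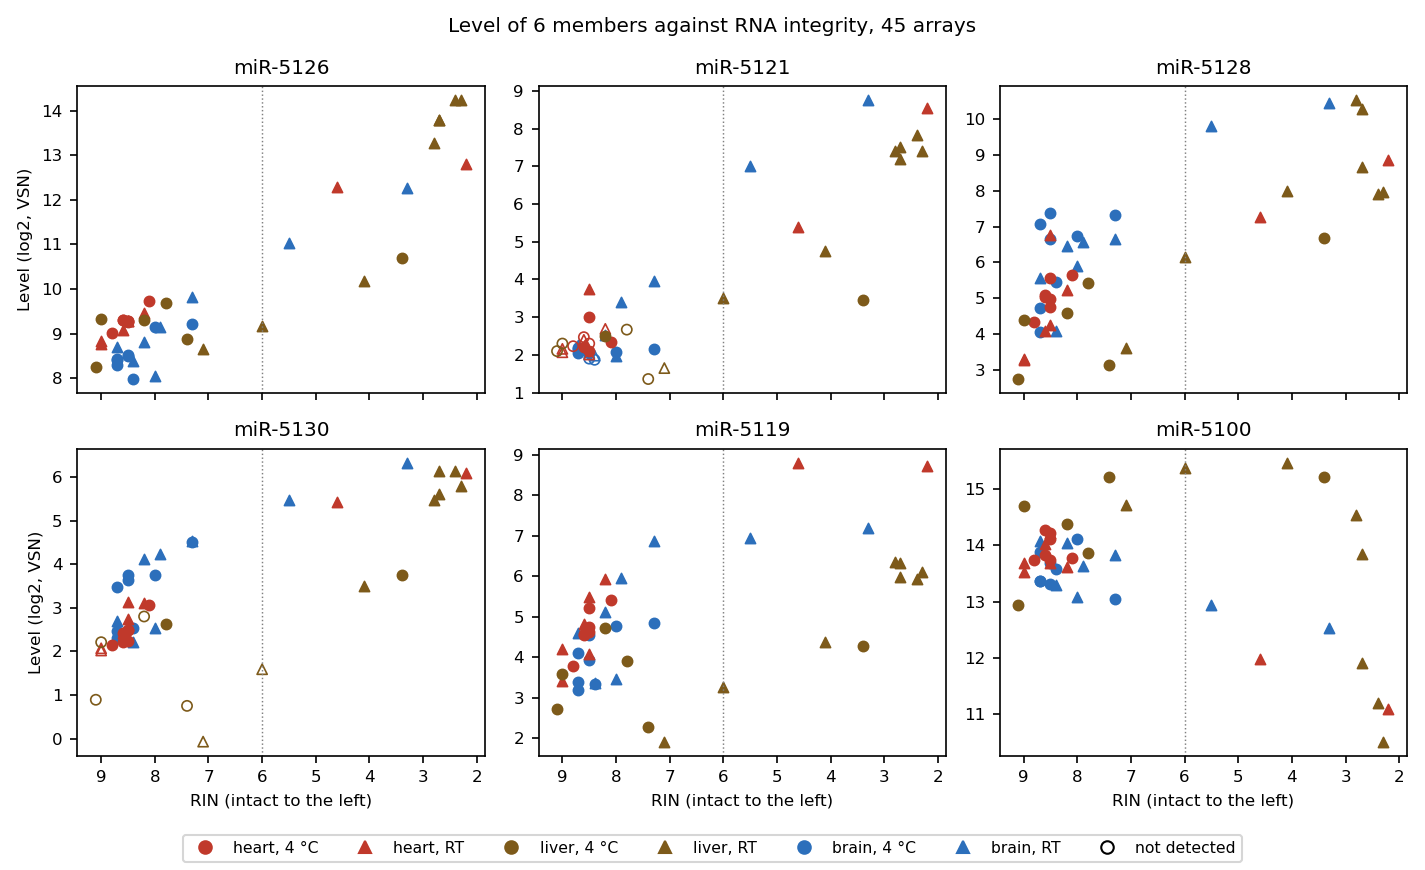
Each panel plots the level (log2, VSN) of 1 member against RIN, with RIN falling to the right and a dotted line at 6. Colours give the tissue, circles 4 °C and triangles RT, and open symbols arrays on which the member was not detected. All panels but that of miR-5100 rise to the right, and miR-5100 falls on the most degraded arrays while single liver arrays reach 15.47.

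The exact Wilcoxon-Mann-Whitney test between the 8 degraded and the 6 intact liver arrays called 9 members higher in degraded RNA, where 24.8% of all tested miRNAs were called, and 1 member lower (miR-5132-3p), where 2.94% were called. The 9 were miR-5107-5p, miR-5112, miR-5113, miR-5118, miR-5119, miR-5121, miR-5126, miR-5128 and miR-5130. The largest mean differences were those of miR-5118 (4.64), miR-5128 (4.29) and miR-5121 (4.03). Of miR-5118 the 6 intact arrays, at -3.27 to 0.30, were all below detection, and 6 of the 8 degraded arrays detected it, with a range of -0.49 to 4.88. Its fold is therefore a bound, at least 2.79-fold. Of the 8 degraded liver arrays 7 come from RT and 1 from 4 °C, and of the 6 intact ones 1 comes from RT, so that quality cannot be told apart from temperature, animal and slide here. When limma was run with slides as blocks, 0 members and 0 of all miRNAs passed the threshold. An unadjusted p under 0.05 was found for 8 members, which was not counted over all tested miRNAs. When the liver array of 0 h or 1 h at 4 °C or that of 0 h at RT was left out, 5 members were called in place of 10.

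Storage at RT gave courses of several shapes. Over the 24 RT arrays 15 members had a positive r with storage time past the threshold, where 36.2% of all tested miRNAs had one. In the other direction miR-5100 and miR-5132-3p passed, where 17.7% of all did. RIN fell along the same arrays (r of RIN with time -0.65). In heart and brain, 17 of the 19 members were highest at 48 or 96 h, the exceptions being miR-5100 and miR-5132-3p. How many of all tested miRNAs were highest at these times was not counted, so that this only describes the members.

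In liver, which degraded fastest, the members parted. A first set of 4, miR-5107-5p, miR-5113, miR-5119 and miR-5128, was highest at 6 h, and 3 of these then fell by over 2. Over the 8 times from 0 to 96 h the levels of miR-5128 were 3.61, 6.16, 8.00, 10.53, 10.27, 8.66, 7.91 and 7.95. For miR-5107-5p they were 4.63, 5.27, 6.27, 7.83, 7.71, 7.30, 6.15 and 5.73. From the peak to 96 h, miR-5128 fell by 2.58 and miR-5107-5p fell by 2.10.

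A second set kept its late level. In liver at RT, miR-5126 was at 8.65, 9.18, 10.17, 13.28, 13.80, 13.79, 14.24 and 14.23 from 0 to 96 h. For miR-5121 the levels were 1.65, 3.50, 4.75, 7.41, 7.51, 7.19, 7.83 and 7.40. In both, most of the rise lay between 0 and 6 h, in which RIN went from 7.1 to 2.8. At 96 h, 13 of the 19 members were within 1 of their highest level, which was not counted over all tested miRNAs.

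A last set rose late. For miR-5103 the 8 values were 0.92, 1.67, 2.12, 1.60, 1.87, 2.37, 5.38 and 7.37, so that it stayed at or below 2.37 up to 24 h and was highest at 96 h. For miR-5131 they were 1.16, 1.14, 1.93, 3.62, 3.98, 5.64, 6.35 and 7.89. RIN was between 2.7 and 2.3 from 12 to 96 h in this series, so that both members moved while RIN hardly did. At 96 h at RT, miR-5103 was at 4.86 in brain and 3.26 in heart, and whether the courses differ between tissues was not tested. There is 1 array per time point, so that these courses have no replicate.

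The course of miR-5100 went the other way. In liver at RT its levels from 0 to 96 h were 14.71, 15.38, 15.47, 14.54, 13.84, 11.91, 11.19 and 10.51. In heart at RT it stayed between 13.52 and 14.21 up to 24 h and was 11.97 at 48 h and 11.09 at 96 h. In brain at RT it was 12.93 and 12.53 at these times, against 13.08 to 14.08 before. Thus the 96 h array was the lowest RT array in all 3 tissues. The share of all detected signal on an array ranged from 3.14% to 5.26% for miR-5100 and from 0.111% to 0.292% for miR-5126 in intact heart. In degraded heart the ranges were 1.43% to 1.66% and 2.05% to 4.68%. They were 4.56% to 7.92% and 0.0973% to 0.271% in intact liver, and 0.683% to 8.01% and 0.102% to 11.7% in degraded liver. In heart, miR-5100 fell by 2.35 from intact to degraded arrays with VSN and fell by 1.24 to 3.02 under the other scalings. In liver its direction depends on the scaling, since its mean fell by 0.79 with VSN and was higher by 0.21 without scaling, where the median of all tested miRNAs rose by 1.07. In brain the difference was -0.86 with VSN and 0.00 without scaling.

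The arms of the miR-5132 hairpin differed in direction after VSN. The 5p arm, miR-5132-5p, was not detected on liver arrays at RT up to 3 h (0.12 to 0.95) and was detected from 6 h on, at 2.43 to 4.29. The 3p arm, miR-5132-3p, had 2.66 at 0 h and 1.44 at 96 h in the same series. Its levels of 1.09 to 2.66 over all arrays are near the background, it was detected on 12 arrays, and its r with RIN turned from 0.68 to -0.33 without scaling between arrays. The direction of the 3p arm is therefore not settled.

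**Figure D3:**
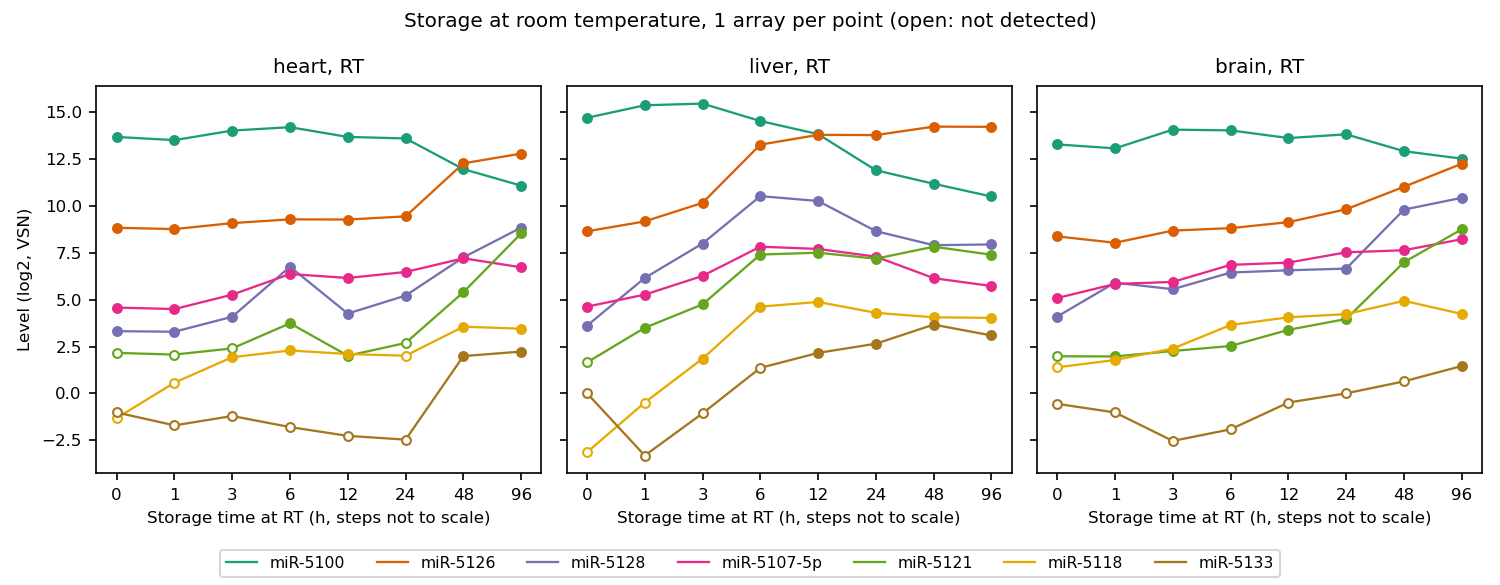
Levels (log2, VSN) of 7 members over storage at RT are shown for heart, liver and brain, 1 array per point, with the time steps not drawn to scale and open points where the member was not detected. In liver miR-5128 peaks at 10.53 at 6 h, miR-5126 stays near 14 from 48 h on, and miR-5100 falls to 10.51. In heart up to 24 h, miR-5100 stays between 13.52 and 14.21 and miR-5126 between 8.77 and 9.45. From 0 to 24 h there, miR-5107-5p goes from 4.58 to 6.48 and miR-5118 from -1.32 to 2.01.

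At 4 °C fewer members moved with time, and those that did rose. Over the 21 arrays miR-5107-5p (r = 0.66) and miR-5119 (r = 0.65) passed the threshold, with adjusted p-values of 0.0288 and 0.0334, where 5.28% of all tested miRNAs passed in either direction. Both calls were lost with 75th percentile scaling and with Bonferroni adjustment, each of which called 0 members. Without adjustment 8 members had a p under 0.05, as did 142 of all 815 miRNAs (17.4%). These arrays are among the 45 behind the correlations with RIN, some of which were seen before the block was proposed. The results at 4 °C are therefore not independent of the choice of the block. All 21 arrays are pieces of 1 animal, so that p-values here measure the spread between pieces, not between animals. RIN fell with time at 4 °C within each tissue (r = -0.86 in heart, -0.89 in liver and -0.96 in brain). RIN stayed at 7.3 or higher in heart and brain.

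The level of miR-5107-5p in heart at 4 °C took the values 4.78, 5.10, 5.09, 5.01, 5.16, 5.42 and 6.30 from 1 to 96 h. In brain it was 5.32, 5.41, 5.84, 5.94, 6.13, 6.19, 6.08 and 6.66 from 0 to 96 h, and in liver 3.84, 4.74, 5.07, 5.10, 5.03 and 6.17 at 0, 1, 3, 12, 24 and 48 h. In all 3 tissues the last array was the highest. Its r within heart, liver and brain was 0.97, 0.84 and 0.81, and rho over the 21 arrays was 0.66. By permutation, p was 0.00075 (r) and 0.00165 (rho). Without the 2 arrays farthest from the median time, r was 0.50 (the arrays left out were those of 96 h).

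In brain at 4 °C, miR-5119 was at 3.19, 3.39, 3.34, 3.92, 4.10, 4.54, 4.78 and 4.85, and in heart it was at 3.79 at 1 h and 5.40 at 96 h. The liver values were 2.71, 2.28, 3.59, 4.73, 3.91 and 4.28. Its rho of 0.83 (permutation p = 2e-05) was above its r of 0.65 (permutation p = 0.00177), and r was 0.62 without the 2 farthest arrays. With the tissue as a block, 6 members passed, the other four being miR-5118, miR-5126, miR-5130 and miR-5132-5p (11.7% of all miRNAs). All 6 had a positive r within each tissue, with values from 0.62 to 0.97. When the liver array of 48 h, of RIN 3.4, was left out as well, 7 members passed with the block (8.47% of all miRNAs).

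**Figure D4:**
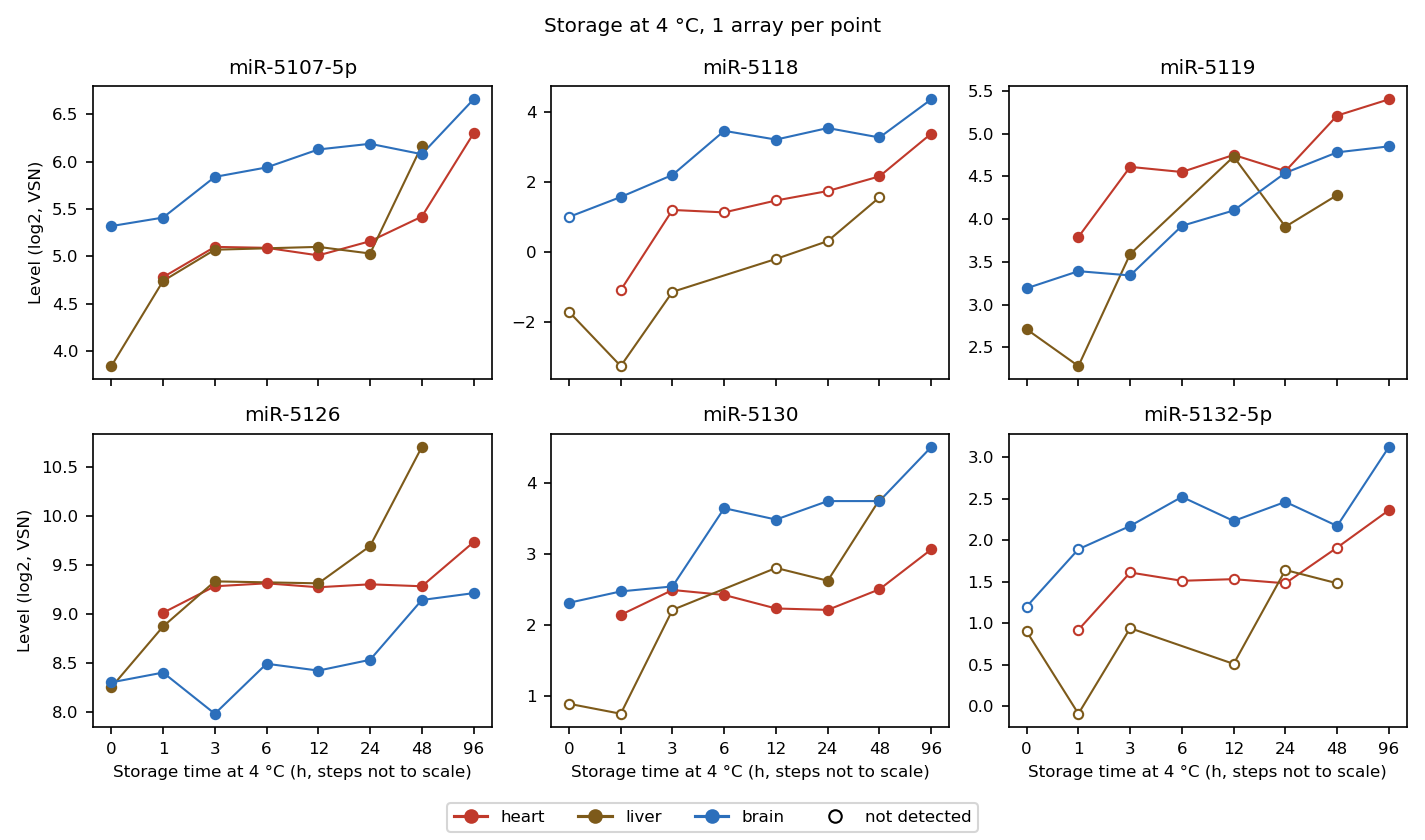
Levels (log2, VSN) of the 6 members called over storage at 4 °C with the tissue as a block are plotted by tissue, 1 array per point, with time steps not to scale and open points where not detected. The last array of each tissue is the highest for miR-5107-5p, at 6.30 in heart, 6.17 in liver and 6.66 in brain.

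Tissues were compared on the 33 intact arrays with limma and the slide as a random block (correlation within slides 0.0197). The same arrays are among those behind the correlations with RIN, some of which were seen before the block was proposed. The tissue contrasts are therefore not independent of the choice of the block. The tissue labels held, as 11 of 11 marker miRNAs of heart, liver and brain were higher on every array of their own tissue than on any other array. The arrays of a tissue come from 2 animals, which the tissues share, so that the p-values measure the spread between pieces and storage times more than between animals. All p-values in the tissue comparisons are adjusted p-values of limma over 815 miRNAs.

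Brain had the higher levels for most of the members that differed. Against liver, 10 members were higher in brain, where 58.0% of all tested miRNAs were called, and 2 lower (14.6% of all). Against heart, 8 were higher in brain (47.1% of all) and 1 lower (21.8% of all). Between heart and liver, 5 were higher in heart (44.8% of all) and 0 lower by limma (9.33% of all, and 0 members at an unadjusted p under 0.05). Among these 5, miR-5113 was below detection on all intact arrays of both tissues. The counts of members stand near those of all miRNAs in brain, and the median difference between brain and liver was 0.70 for the members and 1.12 for all.

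The largest difference was that of miR-5118, which lies in the long non-coding gene Gm45968 on the opposite strand. Its level in intact RNA was 2.86 ± 1.12 (SD, n = 14, detected on 12) in brain, 1.35 ± 1.32 (n = 13, detected on 5) in heart and -1.53 ± 1.48 (n = 6, detected on none) in liver. The difference between brain and liver was 4.41 ± 0.62 (SE, adjusted p = 1.15e-07), and as a fold it was at least 2.36-fold. Between heart and liver it was 2.90 ± 0.63, for which no fold can be given, and between brain and heart it was 1.52 ± 0.50 (adjusted p = 0.00783). All 3 contrasts passed the threshold, with brain highest and liver lowest.

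A member detected in intact brain but in neither other intact tissue was miR-5113, which lies inside Tnrc6b on the same strand, a gene of the silencing complex that miRNAs guide. In intact brain its level was 2.74 ± 0.59 (detected on 11 of 14), and no intact heart or liver array detected it (1.21 ± 0.51 and 0.02 ± 0.81). The difference between brain and liver was 2.72 ± 0.30 and that between brain and heart 1.54 ± 0.24, at least 2.18-fold and 2.31-fold. Differences of 2.72 (miR-5104) and 2.59 (miR-5135) between brain and liver and of 2.26 and 2.66 between brain and heart rest on levels below detection on all but 1 of the intact arrays, and no fold can be given.

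Where both tissues detected a member on all intact arrays, the differences were measured. For miR-5128 brain was 2.07 ± 0.51 above liver (adjusted p = 0.000512) and 1.25 ± 0.41 above heart. For miR-5107-5p these differences were 1.40 ± 0.33 and 0.73 ± 0.26, and miR-5119 was 2.80-fold higher in heart than in liver (adjusted p = 0.00786). The bright members went the other way. In brain, miR-5100 was 0.71 ± 0.23 below liver (13.59 ± 0.36 against 14.30 ± 0.80, adjusted p = 0.00573), and miR-5126 was 0.55 ± 0.18 below heart (8.67 ± 0.51 against 9.22 ± 0.25, adjusted p = 0.00695). With the background treated by normexp and quantile normalization, the differences of miR-5107-5p between brain and both other tissues and those of miR-5119 and miR-5103 between brain and liver changed sign. With the same treatment the differences of miR-5128 were 0.21 against liver and 0.20 against heart and no longer passed, and those between brain and liver were 0.24 for miR-5118 and 0.20 for miR-5113, which still passed. The differences of miR-5118 between brain and heart (0.10) and of miR-5119 between heart and liver (0.27) no longer passed either, and the latter was also lost with 75th percentile scaling. The difference of miR-5100 between brain and liver was -0.08 and no longer passed without scaling, and was -1.46 with 75th percentile scaling. Markers of blood cells differed between the tissues too, as all 4 of 4 listed (miR-451a, miR-144-3p, miR-486a-5p and miR-223-3p) had their highest values in heart, with miR-451a at 12.10 to 14.94 in heart, 5.99 to 10.89 in liver and 8.93 to 11.14 in brain. Their part in the differences of the members was not tested.

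**Figure D5:**
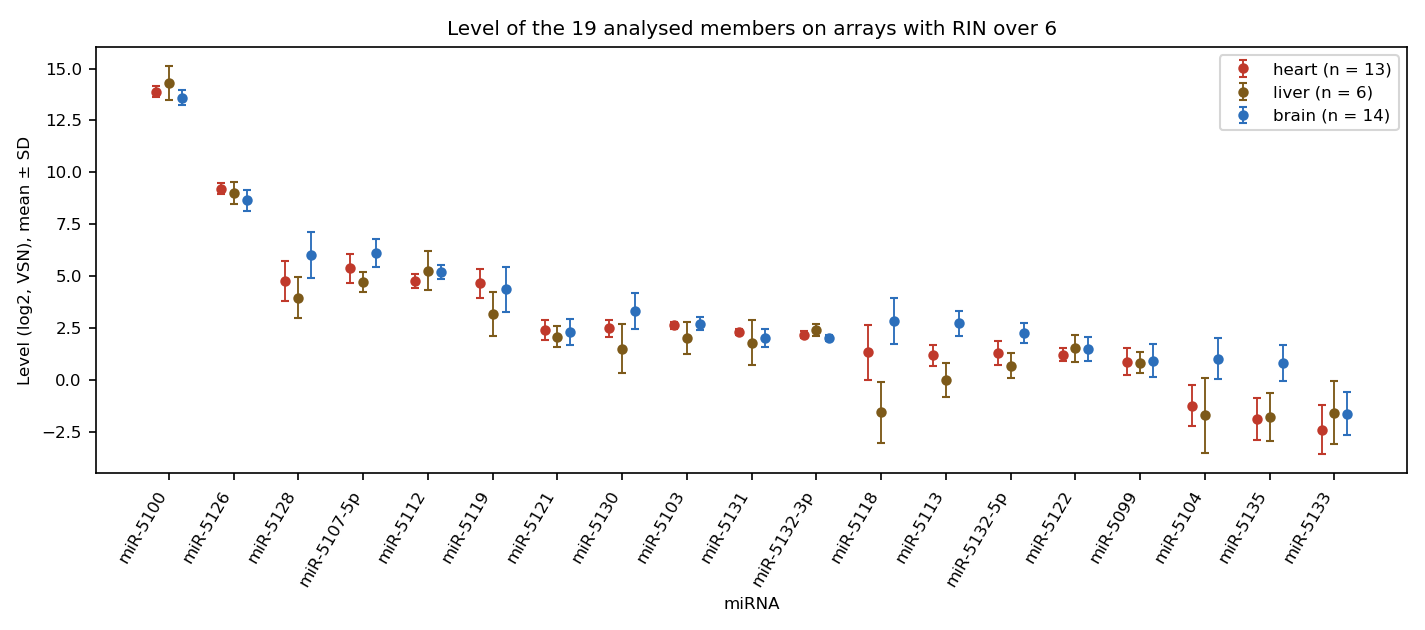
Mean level (log2, VSN) ± SD of each tested member on the arrays with RIN over 6 is plotted for heart (13 arrays), liver (6) and brain (14), with the members ordered by their mean over all arrays. The brain points of miR-5118, miR-5113, miR-5104 and miR-5135 lie above those of the other tissues, and the bright members miR-5100 and miR-5126 differ by less than 1.

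Most pairs of members varied together. Over the 45 arrays, after each tissue's mean was subtracted, the 171 pairs of tested members had a median correlation of 0.66, and 38 pairs were above 0.8. The closest pair was miR-5126 and miR-5130 (r = 0.95), followed by miR-5121 and miR-5126 (r = 0.94). All 34 negative correlations involved miR-5100 or miR-5132-3p. These values are a description, since the arrays share tissues, animals and RIN. Pairs of other tested miRNAs were not computed, so that this is not shown to be a trait of the members. Across the 16 sequenced members that were tested, the share of G correlated with the r with RIN at -0.60, and the share of G and C at -0.32, against -0.59 and -0.51 over all 680 tested miRNAs with a sequence. Just outside the block lie miR-5046, detected on 8 arrays with an r with RIN of -0.56, and both arms of miR-5615, detected on none. Just inside it lie miR-5098 and miR-5136, which were not detected either.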

How the data were processed

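The values analysed were the scanner intensities of 1-colour Agilent miRNA arrays and a table of log2 values, both deposited by the authors. The authors extracted total RNA with the miRNeasy kit without DNase and made the intensity values with Agilent Feature Extraction (version 10.10.1.1 per the file headers), which subtracts the background and gives a detection flag. The deposited log2 table was normalized by the authors with VSN. Detected miRNAs took the scanner's total gene signal, and others the sum of their probe signals. VSN was recomputed over 45 arrays (with 0.9 of the data in the robust fit) without the 4 °C heart sample of 0 h, which the study left out. Over 46 arrays it differed from the deposited table by at most 0.00166. Tested were the 815 miRNAs detected on at least 5 arrays. Hours follow the labels (12 h), where the methods give another value for that time.

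Pearson correlations with RIN and storage time, exact Wilcoxon-Mann-Whitney tests between liver quality groups (both after the study's methods) and limma 3.58.1 (R 4.3.3) on the intact arrays were run across all 815 miRNAs, with Benjamini-Hochberg adjustment. Permutation p-values used 100000 permutations. Tests were checked on simulated data. Python 3.11.15, numpy 2.4.6, scipy 1.17.1 and pandas 2.3.3 were used. A miRNA detected on no array of a group was set to the higher of its own level and the lowest detected level of each array (0.19 to 1.74), and its fold was given as a bound. Every member was named with its number of arrays. Single values were to be given for the members detected on all 45 arrays, the 4 most negative and up to 2 most positive correlations with RIN, the 3 largest liver differences and, in each tissue contrast, up to 3 called members with the largest difference. Values of further members were added after they were seen.

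Alternatives were the authors' table, 75th percentile scaling, no scaling, normexp (offset 50) on median spot and background signals with quantile normalization, minima of 3 and 10 arrays, Bonferroni adjustment, blocks and array subsets. Members, lists and tests were chosen with earlier results of these data known. The number of arrays limits the precision, and nothing in the labels gives replicates of a time point.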

Additional observations from a re-analysis of the deposited data

Results flagged for a closer look

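Within groups of 4 to 10 arrays of 1 tissue and temperature, 6 of 114 groups held an array far from the others by Dixon's criterion, which chance alone gives in about 1 of 20 groups. Of these, 4 lie in heart at 4 °C. There the 96 h array (RIN 8.1) was the highest for miR-5107-5p, at 6.30 against 5.42 for the next array. It was also the highest for miR-5126 (9.73 against 9.31) and for miR-5130 (3.06 against 2.50). For miR-5121 the 3 h array was the highest, at 3.00 against 2.47. In brain at RT the 96 h array (RIN 3.3) stood out for miR-5103, at 4.86 against 2.80. In liver at 4 °C the 1 h array (RIN 7.4) was the lowest for miR-5131, at -0.06 against 1.85. The arrays of a group differ in storage time, so that these are not replicates.

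The slope of miR-5099 on RIN differed between the tissues, with an adjusted p of 0.0221 in limma. It was -0.63 ± 0.11 (SE) in brain, -0.53 ± 0.09 in heart and -0.17 ± 0.07 in liver. The cause was not tested.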

How the results depend on the processing

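Since the tissues of a temperature share 1 animal, a fixed term for temperature stood for the animal in place of the slide block (chosen after seeing the data). With it, 12 members were called between brain and liver, 6 between heart and liver and 10 between brain and heart. With the slide block these were 12, 5 and 9, and no member lost its call. Pieces remained the replicates, so that this does not show whether the calls hold between animals. The comparisons over RIN and storage time have no pairs, as each time point has 1 array. Of 65 alternative counts of called members, 14 moved by over 1.5 times. For RIN, 19 members were called, 12 with Bonferroni adjustment and 0 on arrays with a RIN over 6. For the liver quality groups, 10 were called and 0 in limma with the slide as a block, and leaving out 1 array at a time gave 5 to 14. For RT storage, 17 became 8 with Bonferroni adjustment. For 4 °C storage, 2 became 0 with 75th percentile scaling, 4 with normexp, 0 with Bonferroni adjustment, 6 with the tissue as a block and 7 with the block on arrays with a RIN over 6, an alternative chosen after seeing the data. Between heart and liver, 5 became 8 with 75th percentile scaling and 11 without scaling. Of 308 alternative values of single members, 8 reversed. With normexp the difference between brain and liver was -0.0098 for miR-5103, -0.15 for miR-5107-5p and -0.13 for miR-5119, and that between brain and heart was -0.04 for miR-5107-5p. Without scaling, miR-5132-3p had 0.21 between brain and liver, -0.33 for its r with RIN and 0.27 between degraded and intact liver, where miR-5100 had 0.21. The cause was not tested. Levels near the background limit the members detected on few arrays.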

Other observations

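The heart array of 0 h at 4 °C, which was left out above, detected 4 members and 215 miRNAs in all. In a normalization over 46 arrays its miR-5100 level was 11.41, where the other intact heart arrays ranged from 13.55 to 14.31. Its miR-5126 level was 6.33, where they ranged from 8.81 to 9.77.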
